A study of Mus musculus with 6 samples.

Results

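The glucocorticoid-responsive genes described here were *Nr3c1*, which encodes the glucocorticoid receptor, and *Tsc22d3*, *Fkbp5*, *Per1*, *Sgk1*, *Ddit4* and *Zbtb16*, which the receptor is known to induce. They were taken by symbol from the feature table, which held each of the 7 once among 32285 genes. The rule uses names and no measured value, but the genes were chosen with earlier results of these data known. The samples were sorted live CD45+/CD11b+ cells from the whole brains of 3 male C57BL/6J mice at postnatal day 89, dissociated by cold Dounce homogenization. Mouse 2 (DNC-INHIB) was dissociated with a cocktail of actinomycin D, triptolide and anisomycin, which block transcription or translation, and mice 1 and 3 (DNC-NONE) without it. Each mouse was captured with both versions of the 10X kit, V3.0 and V3.1, giving 6 libraries in which unique molecular identifiers (UMIs) were counted per gene and cell. With 1 mouse in the DNC-INHIB group, the inhibitors and the mouse cannot be told apart in any comparison of the groups.

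Glucocorticoids cross the cell membrane and bind NR3C1, which waits in the cytoplasm in a complex with the chaperone HSP90. The bound receptor moves to the nucleus and binds response elements near its target genes, many of which it switches on within a short time. In microglia and other myeloid cells this route is known chiefly for restraining inflammation, and several of its targets feed back on the hormone's own action. *Per1* also belongs to the circadian clock, and *Ddit4* and *Sgk1* also answer to other stresses.

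The libraries held between 3689 and 6130 barcodes and between 6275898 and 18872816 UMIs. The V3.0 library of mouse 3 stood apart, with a median of 809 UMIs per barcode (3031 to 3409 elsewhere). Its cell filter passed 21.5% of barcodes, and that of the remaining libraries 70% to 76.8%. Of 19725 cells that passed, 19000 were gated by marker UMIs as microglia, 59 as border macrophages (15, 36 and 8 in mice 1, 2 and 3) and 285 as neutrophils (110, 95 and 80). No member served as a marker. Markers left out of the gate followed the classes, with *Clec10a* at 139 CPM in border macrophages and 0.0967 CPM in microglia and *Hdc* at 280 CPM in neutrophils and 0.619 CPM in microglia, but *Clec10a* had a UMI in only 13 of the 59 border macrophages. Any 2 libraries shared between 1 and 14 cell barcodes. Levels below are CPM, a gene's UMIs per 1000000 UMIs of a cell class, given as mean ± SD over the 3 mice unless stated. Where a class has a lower CPM, fewer UMIs per cell and fewer expressing cells cannot be told apart from the sums. A gene was called where the adjusted p of edgeR's quasi-likelihood test was under 0.05 and the log2 fold change was beyond 0.58 either way.

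The promoter windows are shown because the members are named for their answer to 1 transcription factor, and the letters that factor is known to bind differ among them. RefSeq promoters (GRCm38.p6, 250 bases before to 50 after the start) were matched for 5 of the 7 members, 13 promoters in all. The full response element, AGAACA and TGTTCT with 3 bases of any kind between them, occurred in 1 of these, an *Sgk1* promoter, and in 0.00913% of all 32851 promoters (3 promoters). A 6-base arm of it, AGAACA or TGTTCT, occurred in 4 of the 13 and in 19% of all promoters. The E-box CACGTG, bound by clock and MYC-family factors, occurred in 3 of the 13 and in 7.15% of all promoters. Both strands were searched. In the windows below, read 5′ to 3′ on the strand of the gene, capitals mark these motifs.
*Sgk1*, chr10:21993640-21993729, plus strand: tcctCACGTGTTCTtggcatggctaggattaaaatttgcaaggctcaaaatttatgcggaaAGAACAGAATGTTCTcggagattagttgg
*Per1*, chr11:69098753-69098812, plus strand: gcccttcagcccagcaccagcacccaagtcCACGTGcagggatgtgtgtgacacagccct
*Fkbp5*, chr17:28486289-28486348, minus strand: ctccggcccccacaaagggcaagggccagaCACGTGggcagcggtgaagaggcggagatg
*Tsc22d3*, chrX:140600678-140600737, minus strand: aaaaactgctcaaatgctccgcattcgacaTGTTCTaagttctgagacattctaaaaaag
The *Sgk1* window runs from 250 to 161 bases before the start and holds the full element, and nearer its 5′ end an E-box whose last letters overlap an arm of the element. The *Per1* and *Fkbp5* windows carry an E-box, the *Tsc22d3* window carries a single arm, and the 1 *Ddit4* promoter carried none of the 3 motifs. Of the 2 *Per1* and 3 *Tsc22d3* promoters searched, those not shown carried none of the 3 motifs. A match of letters is a description of the window and not evidence of binding.

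The first comparison asked how the levels of these genes in microglia differed between the mouse dissociated with inhibitors and the mice dissociated without. *Tsc22d3*, *Fkbp5*, *Per1* and *Ddit4* were higher in DNC-INHIB microglia, by between 1.59-fold and 2.25-fold, whereas *Nr3c1* and *Sgk1* stayed near a log2 fold change of 0. Of the 6 members tested, 4 were called, all higher, where 0.424% of the 13201 genes tested were called higher and 0.894% either way. Since the members were chosen with earlier results of these data known, this count is a description and not a test of the set. Over the 6 members the median log2 fold change was 0.67, and over all genes tested it was −0.01. The test rests on 3 sums, with the single DNC-INHIB mouse taken to vary like the 2 DNC-NONE mice. Its spread comes mostly from other genes and little from the gene itself. The standard error was 0.096 for *Tsc22d3*, with 103.5 and 114.6 CPM in mice 1 and 3. It was 0.097 for *Fkbp5*, with 151.1 and 108.2 CPM in the same mice. The standard errors and edgeR p values of this comparison therefore do not measure a gene's own variation between mice. An exact permutation of 1 mouse against 2 cannot give a p below 0.333.

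*Tsc22d3* (ENSMUSG00000031431, GRCm38 chromosome X, 140539528 to 140600659, minus strand) encodes GILZ, a leucine zipper protein that holds back NF-κB and AP-1. In microglia its level was 103.5 CPM in mouse 1 and 114.6 CPM in mouse 3, and 204.5 CPM in mouse 2. By library it was 110.9 and 93.4 CPM in mouse 1, 136.7 and 110.3 CPM in mouse 3, and 220.5 and 185.8 CPM in mouse 2, with V3.0 before V3.1. Both DNC-INHIB libraries lay above all 4 DNC-NONE libraries. The difference was 0.92 on the log2 scale, with a standard error of 0.10 (adjusted p = 1.87e-18, edgeR), and DESeq2 called it at 0.92 too (adjusted p = 1.15e-07).

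*Ddit4* (ENSMUSG00000020108, chromosome 10, 59949669 to 59951834, minus strand) encodes REDD1, a brake on the growth kinase mTORC1. Its level in microglia was 47.5 CPM in mouse 1 and 56.9 CPM in mouse 3, against 116.3 CPM in mouse 2. By library, with V3.0 before V3.1, it was 41.7 and 55.3 CPM in mouse 1, 55.2 and 57.2 CPM in mouse 3, and 98.3 and 137.5 CPM in mouse 2, so the groups did not overlap. Its log2 fold change was the largest of the members at 1.17 (standard error 0.10, adjusted p = 3.44e-28, edgeR), and DESeq2 called it as well (1.17, adjusted p = 8.17e-09).

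*Fkbp5* (ENSMUSG00000024222, chromosome 17, 28399094 to 28517527, minus strand) encodes FKBP51, an HSP90 partner that lowers the receptor's affinity for hormone. Microglia held 151.1 CPM in mouse 1, 108.2 CPM in mouse 3 and 204.3 CPM in mouse 2. The 2 DNC-INHIB libraries had 199.9 and 209.4 CPM and the 4 DNC-NONE libraries between 107.6 and 161.1 CPM, and the groups did not overlap. The 2 DNC-NONE mice differed from each other by nearly as much in CPM as mouse 1 differed from mouse 2, and by more as a ratio. The log2 fold change was 0.67 (standard error 0.10, adjusted p = 2.37e-09, edgeR). Against mouse 3 alone it was 0.92 and against mouse 1 alone 0.46, values that have no test, and DESeq2 did not call it. *Fkbp5* overlaps the annotated genes *AC154912.5* and *AC154912.3* on its own strand, to which some of its reads could be assigned.

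*Per1* (ENSMUSG00000020893, chromosome 11, 69095217 to 69109960, plus strand) encodes a repressor of the circadian clock. Its level in microglia was 17.5 CPM in mouse 1, 11.0 CPM in mouse 3 and 22.6 CPM in mouse 2. Mice 1 and 3, both DNC-NONE, differed from each other by more than mice 1 and 2 did. The DNC-INHIB libraries had 24.0 and 20.8 CPM against 10.9 to 19.7 CPM in the DNC-NONE libraries, and the groups were separated by a narrow gap. The log2 fold change was 0.67 (standard error 0.13, adjusted p = 1.06e-04, edgeR). It was 1.04 against mouse 3 alone and 0.39 against mouse 1 alone. It was called in 6 of the 11 alternatives with a test, and DESeq2 was among those that did not call it.

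*Nr3c1* (ENSMUSG00000024431, chromosome 18), the receptor itself, varied little among the mice in microglia, with 234.7, 247.5 and 257.6 CPM in mice 1, 2 and 3. Its log2 fold change for DNC-INHIB was 0.02 (standard error 0.10, adjusted p = 0.99, edgeR). *Sgk1* (ENSMUSG00000019970, chromosome 10, 21882184 to 21999903, plus strand), a kinase that promotes sodium transport and cell survival, stood at 347.4, 303.5 and 272.4 CPM in mice 1, 2 and 3. Its log2 fold change was −0.02 (standard error 0.10, adjusted p = 0.993, edgeR), and within 2 standard errors it lay between −0.22 and 0.18. *Sgk1*, with the full response element in 1 of its 6 promoters searched, was not among the 4 called, and a link of the element with the level was not tested. *Zbtb16* (ENSMUSG00000066687, chromosome 9, 48654297 to 48836222, minus strand), a zinc finger repressor, had 13 UMIs in all microglia and was not tested.

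**Figure D1:**
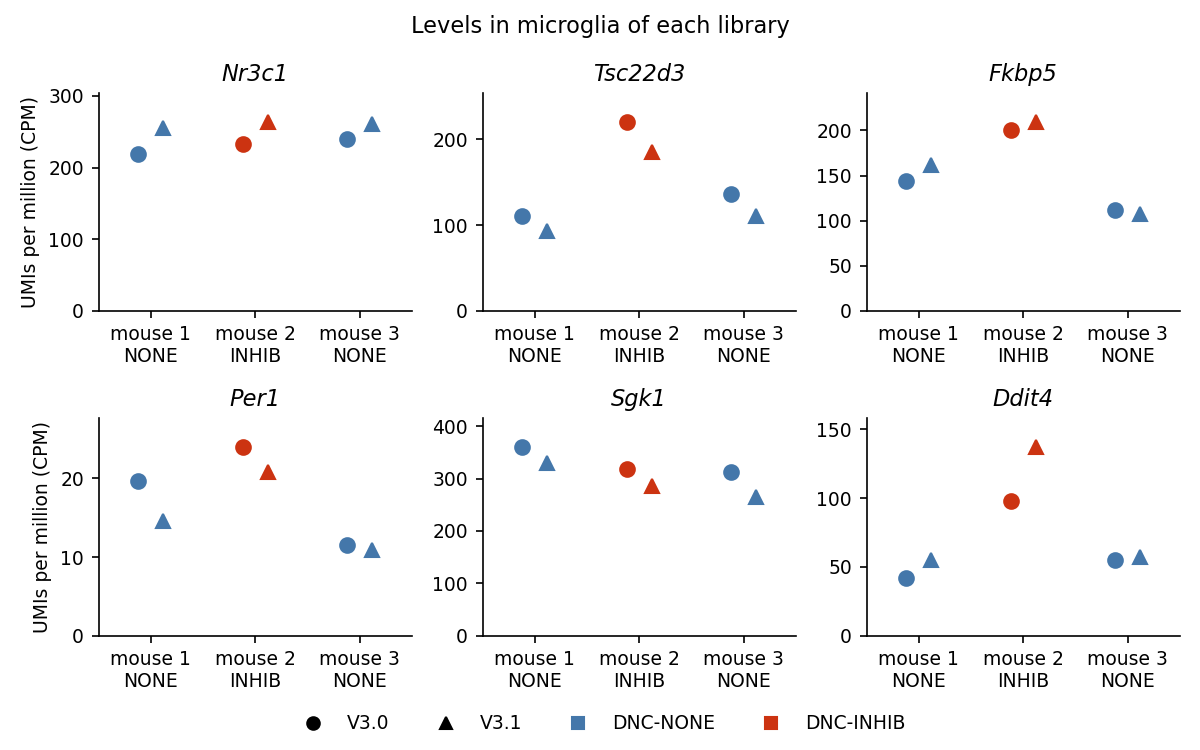
Levels of the 6 tested members in microglia (CPM, vertical axes from 0) in each of the 6 libraries, by mouse (horizontal axes), kit (circles V3.0, triangles V3.1) and group (blue DNC-NONE, red DNC-INHIB). Both libraries of mouse 2 lie above all 4 DNC-NONE libraries for Tsc22d3, Fkbp5, Per1 and Ddit4, and the groups overlap for Nr3c1 and Sgk1.

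In the plot of microglial levels by library, the order of the 3 mice was the same with both kits for each of the 4 called members. Across all 13201 genes tested, 6.01% had both DNC-INHIB libraries above all 4 DNC-NONE libraries and 7.73% had both below. The 2 libraries of a mouse share the animal and are not separate replicates. In the V3.0 libraries alone the log2 fold change was 0.89 for *Tsc22d3*, 0.63 for *Fkbp5*, 0.49 for *Per1* and 1.12 for *Ddit4*, and *Per1* was not called (adjusted p = 0.401, edgeR). In the V3.1 libraries alone the values were 0.87, 0.66, 0.74 and 1.30, and each was called.

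The shares of microglia with a UMI followed the same order once each cell had been drawn down to 2000 UMIs. *Ddit4* was found in 18.3% of mouse 2 microglia (exact 95% binomial interval 17.4% to 19.2%), against 8.70% (8% to 9.45%) in mouse 1 and 10.1% (9.27% to 10.9%) in mouse 3. *Tsc22d3* was found in 31.8% (30.7% to 32.9%), against 18.1% (17.1% to 19.1%) and 19.4% (18.3% to 20.5%). These intervals cover counting error only and not the spread between mice. Without drawing down, *Ddit4* was found in 27.7% of mouse 2 microglia against 14.5% and 16.0%, and *Tsc22d3* in 46.8% against 29.3% and 30.8%. For *Fkbp5* the drawn-down shares were 24.7%, 31.7% and 19.4% in mice 1, 2 and 3, and for *Per1* 3.66%, 4.45% and 2.00%. *Nr3c1* was found in 35.7%, 37.3% and 38.2% and *Sgk1* in 43.7%, 38.6% and 37.3%, with mouse 2 between the other mice in both. Free RNA in the suspension can add UMIs to any droplet, and no gated class is known to lack these genes, so its part in the shares was not tested.

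**Figure D2:**
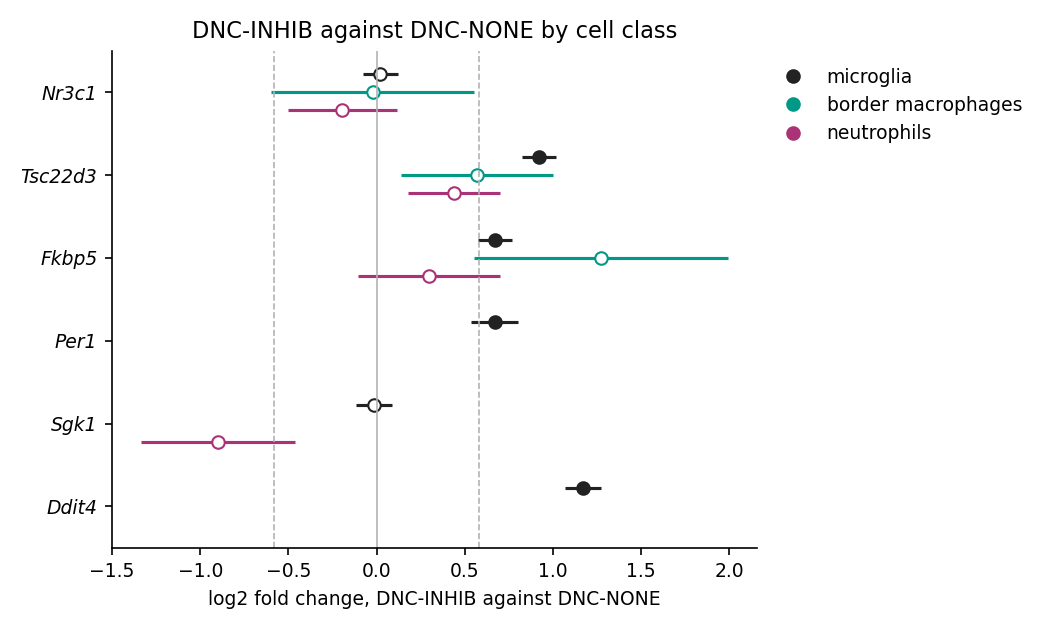
Log2 fold change of DNC-INHIB against DNC-NONE (horizontal axis) for each member (vertical axis) that could be tested in microglia, border macrophages and neutrophils, as points with bars of 1 standard error. Filled points were called, open points were not, and dashed lines mark 0.58 either way. The filled points are Tsc22d3, Fkbp5, Per1 and Ddit4 in microglia, and the bars are wider in the other classes.

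Border macrophages and neutrophils were too few for a comparably close estimate. In border macrophages 3 members could be tested and edgeR called 0 of them, with 0 at an unadjusted p under 0.05 and 0 called by DESeq2, where 0.0787% of 1271 genes were called. *Tsc22d3* stood at 394.8 CPM in mouse 2 against 334.1 and 184.5 CPM in mice 1 and 3, a log2 difference of 0.57 (standard error 0.43, adjusted p = 0.999, edgeR). *Fkbp5* stood at 222.1 CPM against 121.5 and 52.7 CPM (1.27, standard error 0.72, adjusted p = 0.999, edgeR). *Ddit4* gave 13 UMIs in mouse 2, 1 in mouse 1 and 0 in mouse 3, too few to pass the filter on low counts. In neutrophils 4 members were tested and edgeR called 0, where 0.265% of 4524 genes were called, with 1 member, *Sgk1*, at an unadjusted p under 0.05 and 0 called by DESeq2. *Sgk1* was at 27.7 CPM in mouse 2 against 52.0 and 47.4 CPM in mice 1 and 3 (−0.90, standard error 0.43, adjusted p = 0.708, edgeR). *Tsc22d3* was at 184.9 CPM against 122.4 and 142.2 CPM (0.44, standard error 0.26, adjusted p = 0.896, edgeR).

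The difference of the inhibitor effect between classes was tested by itself. For border macrophages minus microglia, edgeR called 0 of 6 members (0.0262% of 7643 genes called), and for neutrophils minus microglia 0 of 6 (0.0393% called), with 0 members at an unadjusted p under 0.05 and 0 called by DESeq2 in either. The estimates were wide. For *Ddit4* they were 2.07 (standard error 1.43) and −1.25 (standard error 1.41), and for *Tsc22d3* in neutrophils −0.47 (standard error 0.27). No smaller or larger effect outside microglia was detected for the members, and the size that could have been detected at this depth was not tested.

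The next comparison asked how the levels differed between the cell classes, with all 3 mice in each class. Border macrophages, the macrophages of the meninges and vessels, held more *Tsc22d3* and less *Sgk1* than microglia. Neutrophils, short-lived cells of the blood, held less *Sgk1* than microglia. Whether they held less *Ddit4* depended on the gate, and whether they held more *Tsc22d3* on the scaling and, in CPM, on the gate. The receptor gene *Nr3c1* was not called between any classes under the main scaling.

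**Figure D3:**
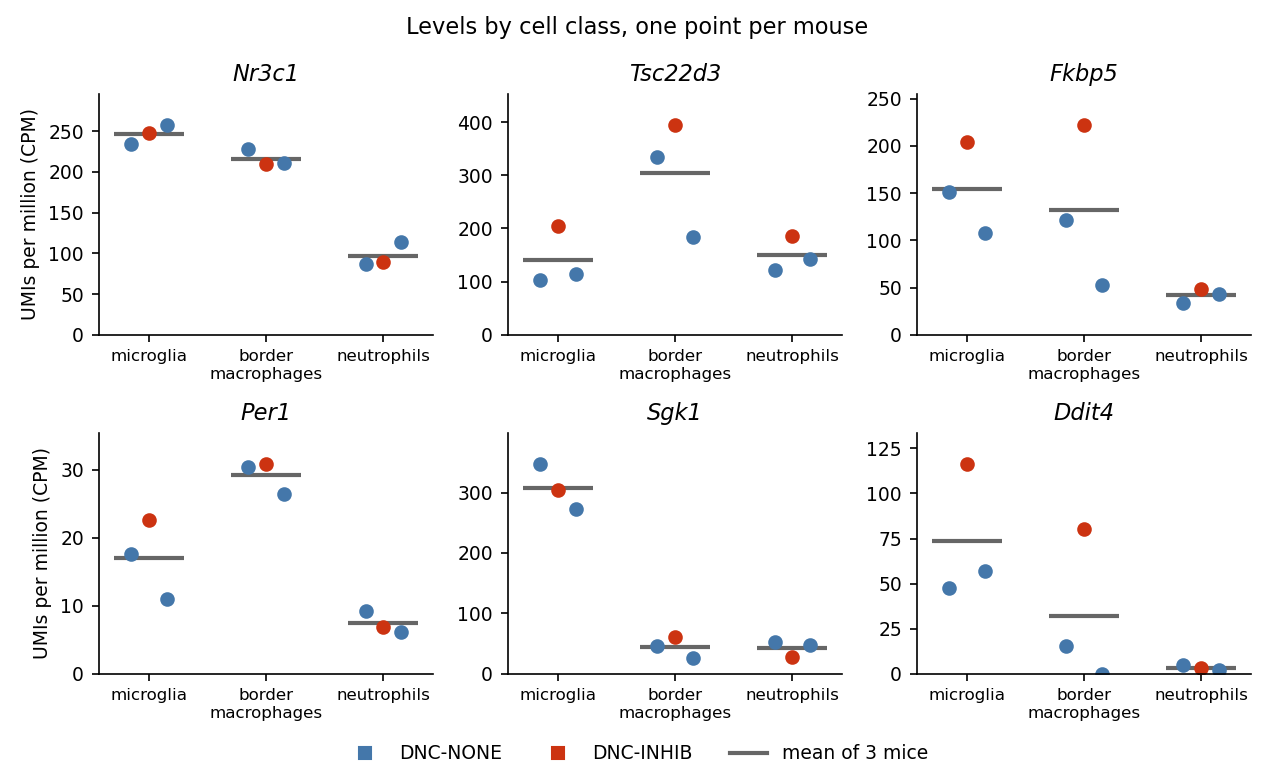
Levels of the 6 tested members (CPM, vertical axes from 0) in microglia, border macrophages and neutrophils (horizontal axes), with 1 point per mouse (blue DNC-NONE, red DNC-INHIB) and a line at the mean of the 3 mice. Sgk1 is highest in microglia in every mouse, and Tsc22d3 is higher in border macrophages than in microglia in every mouse.

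*Tsc22d3* in border macrophages reached 334.1, 394.8 and 184.5 CPM in mice 1, 2 and 3 (304 ± 108 CPM, SD, n = 3), against 141 ± 55.4 CPM (SD, n = 3) in microglia. The border macrophage level exceeded the microglial level in each mouse, and the log2 fold change was 1.41 (standard error 0.21, adjusted p = 2.09e-10, edgeR). *Sgk1* showed the reverse order, at 45.6, 61.7 and 26.4 CPM in border macrophages (44.5 ± 17.7 CPM, SD, n = 3) against 308 ± 37.7 CPM (SD, n = 3) in microglia, a log2 difference of −2.28 (standard error 0.34, adjusted p = 8.03e-10, edgeR). These 2 of the 6 members tested were called, where 15.9% of 7643 genes were called, 8.5% higher and 7.35% lower. The *Sgk1* level in border macrophages rested on 14 UMIs. It came to 14.5% of the microglial level, and 10 microglial marker genes in the same cells ranged from 0% to 44.0% of theirs.

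The other members did not pass the test between border macrophages and microglia. *Nr3c1* was at 216 ± 10.1 CPM in border macrophages and 247 ± 11.5 CPM in microglia (SD, n = 3), with a log2 fold change of 0.07 under TMM scaling and −0.19 under library size. *Fkbp5* was at 132 ± 85.2 and 155 ± 48.1 CPM (0.22, and −0.06 under library size), so that the scaling turned the direction of both small differences. *Per1* was at 29.2 ± 2.46 and 17.0 ± 5.81 CPM (0.92, standard error 0.65, adjusted p = 0.414, edgeR), and *Ddit4* at 31.8 ± 42.6 and 73.6 ± 37.3 CPM (−0.52, adjusted p = 0.513, edgeR). *Per1* rested on 8 UMIs and *Ddit4* on 14 in border macrophages. *Zbtb16* gave 4 UMIs there, from 3 of 59 cells, and was not tested.

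Neutrophils differ from microglia in the make-up of their RNA, and this bears on every value in that comparison. The 10 most abundant genes took 52.1% to 53.1% of neutrophil UMIs and 16.6% to 17.2% of microglial UMIs. TMM scaling, used in the main test, sets most genes level between the classes, whereas scaling by library size keeps the CPM and moves the median of all genes from −0.25 to −1.78. Under TMM, 3 of the 6 members were called, where 66.7% of 7643 genes were called, 29.9% higher and 36.8% lower. With 6 members tested, this count does not set them apart from the genes as a whole.

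*Sgk1* was lower in neutrophils under both scalings, at 52.0, 27.7 and 47.4 CPM (42.4 ± 12.9 CPM, SD, n = 3), and its log2 fold change was −1.37 under TMM (standard error 0.20, adjusted p = 4.54e-11, edgeR) and −2.90 under library size. *Ddit4* had 6 UMIs in 285 neutrophils, at 4.59, 3.46 and 2.06 CPM, a log2 difference of −2.90 (standard error 0.47, adjusted p = 2.49e-09, edgeR) and −4.41 under library size. Its neutrophil level was 4.58% of the microglial level, and 10 microglial marker genes stood at 1.14% to 2.77% of theirs in neutrophils. The *Ddit4* value depended on the gate. When neutrophils were taken by the number of marker genes found, which kept 137 of them, *Ddit4* rose to 53.1 ± 41.0 CPM (SD, n = 3) and its log2 fold change to 0.36.

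*Tsc22d3* was at 122.4, 184.9 and 142.2 CPM in neutrophils (150 ± 31.9 CPM, SD, n = 3), close to the microglial CPM. With cells taken by the number of marker genes found, *Tsc22d3* was at 322 ± 145 CPM in neutrophils and 142 ± 56.3 CPM in microglia (SD, n = 3). Under TMM and the main gate its log2 fold change was 1.61 (standard error 0.14, adjusted p = 3.17e-30, edgeR), and under library size it was 0.08 and not called. Set against the median of all genes, it was 1.86 higher under TMM and 1.87 higher under library size on the log2 scale. *Nr3c1*, at 96.8 ± 14.4 CPM (SD, n = 3), went from 0.14 under TMM to a called −1.39 under library size, *Fkbp5*, at 41.8 ± 7.48 CPM, from −0.40 to −1.94, and *Per1*, at 7.42 ± 1.56 CPM, from 0.31 to −1.22.

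**Figure D4:**
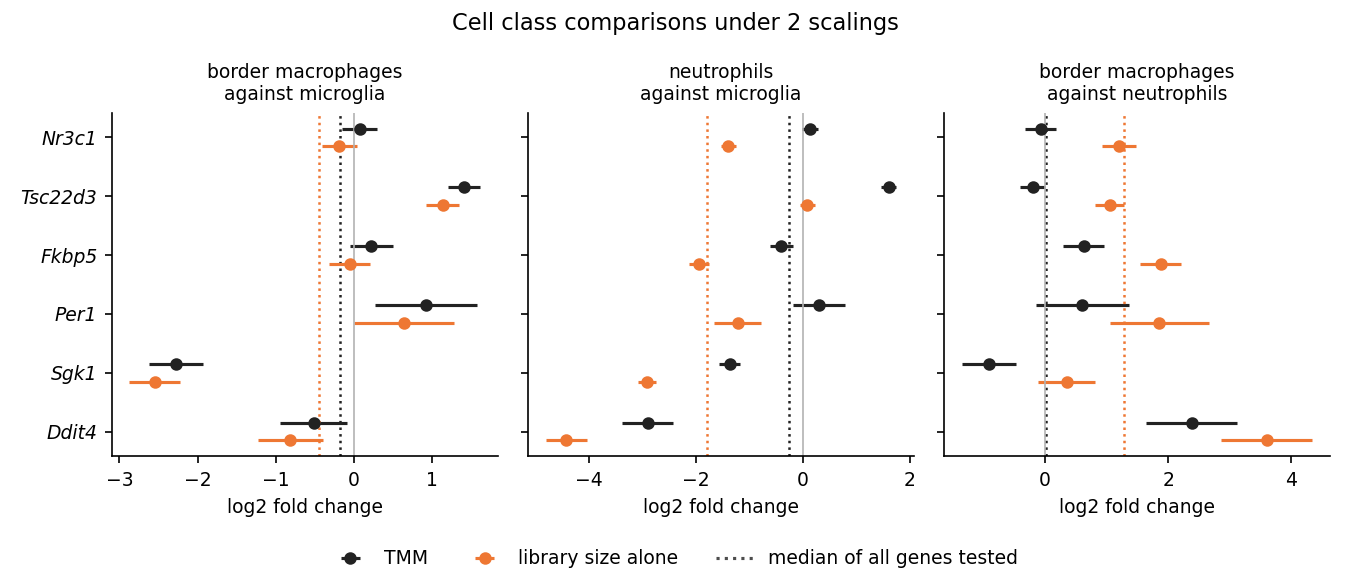
Log2 fold change (horizontal axes) of each tested member (vertical axis) in the 3 comparisons between cell classes, as points with bars of 1 standard error, under TMM (black) and library size alone (orange), with dotted lines at the median of all genes tested. Library size moves all 6 members and the median down in neutrophils against microglia, where Tsc22d3 goes from 1.61 to 0.08, and Sgk1 lies left of 0 in both comparisons with microglia under either scaling.

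Between border macrophages and neutrophils, 1 of 6 members was called, where 44% of 7643 genes were called, 20.1% higher and 23.9% lower. *Ddit4* was the member called, with a log2 difference of 2.38 in favor of border macrophages (standard error 0.74, adjusted p = 0.00394, edgeR). This rested on mouse 2, which gave 13 of the 14 border macrophage UMIs, and without mouse 2 the value was 0.08 (adjusted p = 0.99, edgeR). The call was also lost without the mouse as a block (2.66, adjusted p = 0.124, edgeR). Without mouse 2, *Sgk1* was called lower in border macrophages at −1.78 (adjusted p = 0.0378, edgeR), against −0.91 (adjusted p = 0.0768, edgeR) with all mice. Under library size the median of all genes moved from 0.03 to 1.28.

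The lists of related genes gave few calls beside the members in the inhibitor comparison in microglia. Of the receptor's partners (receptor NR3C2, chaperones, the hormone-regenerating enzyme HSD11B1 and coregulators), 12 of 13 were tested and edgeR called 0, with 7 at an unadjusted p under 0.05 and 0 called by DESeq2. Their median log2 fold change was 0.23. The HSP90 co-chaperones *Stip1* (0.55, adjusted p = 6.38e-05, edgeR) and *Fkbp4* (0.49, adjusted p = 1.51e-04, edgeR) and the chaperone *Hsp90ab1* (0.37, adjusted p = 0.0148, edgeR) passed the p threshold and stayed below the fold threshold. *Hsp90ab1* was at 596.4 CPM in mouse 1, 959.5 CPM in mouse 2 and 896.8 CPM in mouse 3, so that the DNC-NONE mice differed from each other by more than mice 2 and 3.

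Of 28 other genes known to be induced by glucocorticoids, 23 were tested, 0 were called higher and 2 were called lower by edgeR, with 0 called by DESeq2 and a median of 0.09. *Lcn2*, which encodes an iron-carrier-binding protein, fell by 0.90 (standard error 0.14, adjusted p = 1.32e-07, edgeR). It is a neutrophil transcript, at 10675 ± 1096 CPM in neutrophils (SD, n = 3) and 17.4 ± 8.32 CPM in microglia. By library it stood at 5.52 and 17.2 CPM in mouse 2 and between 8.37 and 30.3 CPM in the DNC-NONE mice, and the groups overlapped. The 8 neutrophil gate markers summed in microglia to 619 to 809 CPM in DNC-INHIB and 538 to 1151 CPM in DNC-NONE libraries, and their part in the *Lcn2* value was not tested. *Mt2*, a metal-binding metallothionein, fell by 1.12 (standard error 0.32, adjusted p = 0.0412, edgeR) at 1.55 CPM in mouse 2 against 3.16 and 3.64 CPM in mice 1 and 3. *Cebpb*, a transcription factor of the acute-phase response, passed the p threshold at 0.49 (adjusted p = 1.27e-04, edgeR), below the fold threshold. *Dusp1* and *Klf9*, among the best-known targets of the receptor, were not called (0.50, standard error 0.25, adjusted p = 0.603, and 0.16, standard error 0.26, adjusted p = 0.97, edgeR).

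Of 16 clock genes, 14 were tested in microglia and edgeR called 0, with 1 (*Hlf*, −0.42, adjusted p = 0.0216) at an unadjusted p under 0.05 and 0 called by DESeq2, and the median was −0.13. The paralog *Per2* stood at −0.54 (standard error 0.33, adjusted p = 0.772, edgeR) and *Per3* of −0.15. Of 11 paralogs of the members, 8 were tested and edgeR called 0, with 2 (*Sgk3* and *Fkbp4*) at an unadjusted p under 0.05 and 0 called by DESeq2. The paralogs *Tsc22d4* (−0.03), *Tsc22d2* (0.06) and *Tsc22d1* (0.20) of *Tsc22d3* were not called.

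**Figure D5:**
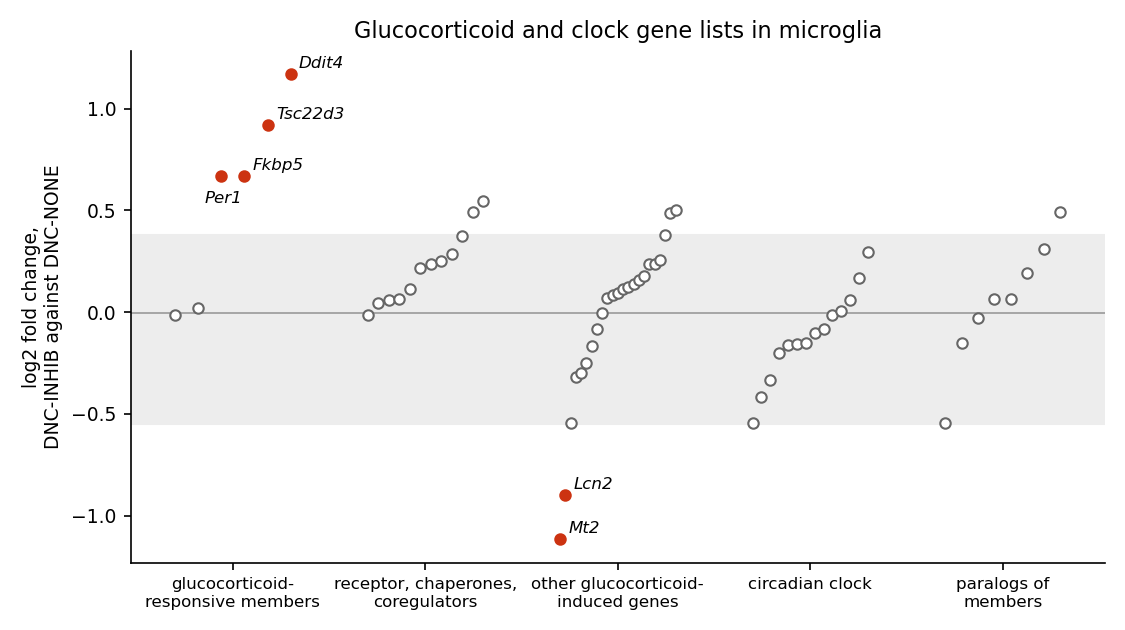
Log2 fold change of DNC-INHIB against DNC-NONE in microglia (vertical axis) for each tested gene of the members and of the 4 related lists (horizontal axis), with 1 point per gene in rising order within its list. Filled red points were called, and the gray band and line mark the 5th to 95th percentile (−0.55 to 0.38) and the median (−0.01) of all genes tested. The called members lie above the band, and Lcn2 and Mt2 of the induced genes lie below it.

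In neutrophils, 1 of 11 tested genes of the induced list was called higher in DNC-INHIB, *Gadd45g*, a growth-arrest gene, at 108.9 CPM in mouse 2 against 26.0 and 47.4 CPM (1.56, standard error 0.34, adjusted p = 0.00356, edgeR). There 0.155% of the genes tested were called higher, and DESeq2 called 0 of the list. In border macrophages 0 of 7 tested genes of that list were called by edgeR, with 0 at an unadjusted p under 0.05 and 0 called by DESeq2.

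The lists were also compared between the cell classes, where a larger share of all genes was called. A gene that is high in 1 class and near 0 in another can pass the filter on low counts through the first class alone, so the counts cover the genes that passed and not whole lists. Of 18 induced genes tested, 4 were higher and 2 lower in border macrophages than in microglia, where 8.5% of all genes tested were called higher and 7.35% lower. Higher were *Dusp1*, a phosphatase that switches off MAP kinases (3.85 on 14 UMIs), and *Nedd9* (3.82 on 4 UMIs, all from mouse 2). So were *Bcl6* (1.98 on 11 UMIs) and the metallothionein *Mt1* (1.59). In border macrophages of mice 1, 2 and 3, *Dusp1* was at 30.4, 74.0 and 0 CPM and *Bcl6* at 15.2, 55.5 and 26.4 CPM. Lower were *Mertk*, a receptor for the uptake of dying cells (−1.49), and *Gadd45g*, which DESeq2 did not call. *Gadd45g* had 0 UMIs in border macrophages and was at least 2.02-fold lower against a limit of 3 UMIs over the class. Of the clock genes, 1 of 7 tested was higher (*Dbp*, 1.29, not called by DESeq2). Of the receptor's partners 1 of 12 was higher (*Hsp90ab1*, 0.68) and 1 lower (the corepressor *Nrip1*, −1.19), and of the paralogs 1 of 5 was lower (*Tsc22d4*, −0.69). Under library size the counts were 4 higher and 2 lower for the induced genes and 0 and 1 for the clock genes. They were 0 and 1 for the receptor's partners and 0 and 1 for the paralogs.

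Against microglia, neutrophils were higher in 10 and lower in 5 of the 18 induced genes tested, and 8 and 8 under library size, where 29.9% of all genes tested were called higher and 36.8% lower under TMM. The largest differences were in *Lcn2* (10.85), *Anxa1*, the glucocorticoid-induced annexin (10.62), the decoy receptor *Il1r2* (9.52), *Nedd9* (7.55) and *Dusp1* (6.21) on the higher side, and *Mertk* (−4.72), *Mt1* (−3.90) and *Sesn1* (−3.36) on the lower, with *Sult1a1* and *Errfi1*, which had 3 and 1 neutrophil UMIs. *Hsd11b1*, which regenerates active hormone from its inert form, was at 70.1 ± 7.18 CPM in neutrophils (SD, n = 3), at 0.135 ± 0.0595 CPM in microglia and at 0 UMIs in border macrophages. Of the 16 clock genes, 7 passed the filter and were lower in neutrophils under both scalings, among them *Per3*, *Nr1d2* and *Tef*, at 54.0, 62.3 and 86.2 CPM in microglia and with 1, 2 and 3 UMIs in all neutrophils. Untested clock genes went the other way in CPM, with *Cry1* at 17.5 CPM in neutrophils and 7.51 CPM in microglia, *Per2* at 6.27 and 2.34 CPM and *Bhlhe40* at 5.27 and 0.176 CPM. Of 12 receptor partners 3 were higher and 4 lower, and 1 and 9 under library size. Among the 5 paralogs tested, 1 was higher (*Tsc22d4*, 1.18) and 3 lower (*Tsc22d2*, *Fkbp4* and *Per3*), and 0 and 4 under library size.

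Between border macrophages and neutrophils, 7 receptor partners were higher in border macrophages and 3 lower, 5 induced genes were higher and 10 lower, 6 clock genes were higher and 0 lower, and 2 paralogs were higher and 1 lower, where 20.1% of all genes tested were called higher and 23.9% lower. Under library size these counts were 9 and 2, 7 and 7, 6 and 0, and 3 and 1.

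The kits were compared over the 3 libraries of each, which came from the same mice. edgeR called 0 of the 6 members, with 1 (*Nr3c1*) at an unadjusted p under 0.05 and 0 called by DESeq2, where 3% of 12027 genes were called. *Nr3c1* was at 231 ± 11.0 CPM with V3.0 and 260 ± 4.14 CPM with V3.1 (SD, n = 3 libraries), higher with V3.1 in 3 of 3 mice, a log2 difference of 0.19 (standard error 0.07, adjusted p = 0.0734, edgeR). The other log2 fold changes were −0.36 for *Per1*, −0.26 for *Tsc22d3*, −0.16 for *Sgk1*, 0.05 for *Fkbp5* and 0.34 for *Ddit4*. Within the mice, *Per1*, *Tsc22d3* and *Sgk1* were lower with V3.1 in 3 of 3 and *Ddit4* higher in 3 of 3, and *Fkbp5* was higher in 2 of 3.

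Genes most like each member were sought by Pearson's r of log2(CPM + 1) over 18 sums, 3 classes by 6 libraries, among 5871 genes with a mean of at least 20 CPM. These sums share class, mouse and library, and the values describe the order of levels only. *Nr3c1* was most like *Blnk* (0.965), *Tsnax* (0.964) and *Trmt2a* (0.963), and *Sgk1* most like *Retreg1* (0.944), *Smap2* (0.939) and *Ubash3b* (0.915). *Ddit4* was most like *Mif* (0.938), *Srprb* (0.937) and *Usp10* (0.933), *Fkbp5* like *Tmed9* (0.913), *Park7* (0.909) and *Prune2* (0.902), and *Per1* like *Ttc19* (0.902), *Asna1* (0.897) and *Ubxn6* (0.890). *Tsc22d3* had the lowest values of the tested members, led by *Cbr2* (0.791), *Clec10a* (0.75) and *Rab7b* (0.731). These had 59, 42 and 29 UMIs, found in 11, 8 and 9 of the 18 sums, and each was highest in a border macrophage sum. *Cbr2* is a gate marker of border macrophages, so the gate itself bears on its order between the classes. *Zbtb16*, with few UMIs, was led by *Gh* (0.823), *Esd* (0.693) and *Slfn5* (0.685). *Gh* had UMIs in 5 of the 18 sums, with 863 CPM in the border macrophages of the V3.1 library of mouse 2.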

How the data were processed

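The authors aligned reads of each library with Cell Ranger 5.0.0 to mm10 and deposited UMI counts per gene and barcode, unnormalized. The cell filter asked for 1000 to 4000 genes, no more than 12000 UMIs and a mitochondrial share up to 15%. Cells were gated by UMIs of marker genes: at least 5 of the class (50 for neutrophils), at least 50% of the cell's marker UMIs, and under 20 of another class, which marked 56 possible doublets. This gate replaced one on the number of markers found (at least 3 own and at most 2 of another class), which kept 20 border macrophages and 137 neutrophils, and it was chosen after seeing how many cells each kept. The members and lists were chosen with earlier results of these data known. All members, list genes by largest change (at most 5 a direction), tested paralogs and the 3 most alike genes are named. *Cebpb*, *Stip1*, *Fkbp4*, *Hsp90ab1*, *Hlf*, *Dusp1* and *Klf9* in the inhibitor comparison and *Gadd45g* in neutrophils were singled out after their values were seen. So were *Cry1*, *Per2*, *Bhlhe40*, *Nr1d1*, *Cry2*, *Ciart*, *Rora*, *Arntl* and *Npas2* between classes.

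UMI counts were summed per mouse and class and tested with edgeR 4.0.16 (R 4.3.3; TMM, filterByExpr, glmQLFTest, two-sided, Benjamini-Hochberg over all genes tested), with the mouse as a block between classes. DESeq2 1.42.0 was an alternative. Samples sharing a number came from the same mouse, and over 500 genes the libraries of a mouse correlated in their deviations from the kit means at 0.353, 0.535 and 0.169. The kit test was fitted without the mouse as a block, so its spread is that between mice within a kit. Promoters came from RefSeq and positions from GENCODE M21. Scripts were tested on simulated data. Python 3.11.15 with numpy 2.4.6, scipy 1.17.1 and pandas 2.3.3 did the rest.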

Additional observations from a re-analysis of the deposited data

Results flagged for a closer look

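Among the 4 DNC-NONE libraries, 21 sets of member values were examined for a library far from the others, and chance flags about 1 in 20. *Ddit4* in microglia was 41.7 CPM in the V3.0 library of mouse 1 against 55.2 to 57.2 CPM in the other 3, and both DNC-INHIB libraries were above all of these. *Fkbp5* in neutrophils was 76.4 CPM in the V3.0 library of mouse 3, on 9 UMIs, against 29.8 to 37.0 CPM. The other flags rested on 1 or 2 UMIs where the remaining libraries had 0: *Ddit4* in border macrophages at 34.1 CPM (mouse 1, V3.1), *Zbtb16* in border macrophages at 77.4 CPM (mouse 3, V3.1) and *Zbtb16* in neutrophils at 3.31 CPM (mouse 1, V3.0).

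The 173 cells gated as monocytes entered no comparison, and all 7 members were found in them above the limit that a count of 0 allows. *Tsc22d3* averaged 397 CPM over the 3 mice, *Nr3c1* 115 CPM, *Ddit4* 101 CPM, *Sgk1* 76.0 CPM, *Fkbp5* 66.3 CPM, *Per1* 29.7 CPM and *Zbtb16* 17.7 CPM (18 UMIs). Mouse 2 was the highest of the 3 mice for *Tsc22d3* (482.7 CPM against 329.8 and 379.7), *Ddit4* (144.1 CPM against 77.4 and 82.1), *Fkbp5* (107.6 CPM against 60.6 and 30.8), *Per1* and *Sgk1*, and these differences were not tested.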

How the results depend on the processing

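The number of members called per comparison was recomputed in 107 alternatives and stayed within 1.5 times the reported number in 98. For neutrophils against microglia, scaling by library size gave 5 members in place of 3. For border macrophages against neutrophils (1 member), library size gave 5, a minimum of 500 genes per cell 2, the gate by number of markers found 0, the V3.0 libraries alone 0, and leaving out each mouse between 1 and 2. Dropping the replicate block (the mouse) there gave 0, with *Ddit4* at 2.66 (adjusted p = 0.124, edgeR). For the inhibitors in microglia (4 members), DESeq2 gave 2 and the gate by number of markers 2. With the replicate block in the kit comparison, 0 members and 534 genes in place of 361 were called, and the block changed no other member's call. Of 617 alternative values for single members, 46 had another sign than the reported one, and in 40 of these the gene was called with neither setting. The 6 with a call in either setting were *Nr3c1* (−1.39) and *Per1* (−1.22) in neutrophils against microglia and *Nr3c1* (1.2) and *Tsc22d3* (1.05) in border macrophages against neutrophils, all under library size, and *Ddit4* under the gate by number of markers, at 0.36 and −0.97 in the same comparisons. The cause was not tested. Of the 617, 560 kept direction and call or moved by less than the spread. *Tsc22d3* and *Ddit4* were called for the inhibitors in microglia in all 11 alternatives with a test, *Fkbp5* in 9 and *Per1* in 6. A stricter gate (at least 4 own markers and at most 1 of another class) left too few border macrophages and gave no value for the comparisons with that class, and leaving out a DNC-NONE mouse left 1 mouse against 1, with no test.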
